A study of Ovis aries with 6 samples.

Results

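The 5 genes described here, CSN2, CSN3, LALBA, PAEP and LPO, code for proteins that are known from milk, and their transcripts were measured in the skin of fine-woolled and coarse-woolled sheep. They were picked by name, through 6 probes of the Agilent sheep array, out of 15008 different probes on it. A gene symbol could be given here to 734 of these probes, through RefSeq accessions, for 476 symbols, so that a gene counted below as without a named probe may still be on the array. The choice was made with the breed difference of these probes already known, so that difference is given below as a description. A further probe of LALBA and a further probe of LPO are on the same array and were added for comparison.

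Each of the 6 arrays carried the Cy3-labelled RNA of 1 animal, from about 1 cm2 of full-thickness skin of the body side. There were 3 Aohan fine wool sheep, a breed with fine wool, and 3 small tail Han sheep, a breed with coarse wool, all aged 12 months and reared normally in pens. Each breed was represented by 1 ram and 2 ewes that had the same sire, but the ram was not identified in the labels. Each breed also had its own scan session, so that breed, sire family and scan session cannot be told apart. The replicates were separate animals, and no milking or pregnancy state was given in the sources used here.

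Casein genes encode the proteins that bind calcium phosphate into micelles. Beta-casein (CSN2) is one of the calcium-sensitive caseins, and kappa-casein (CSN3) sits on the micelle surface and keeps micelles in suspension. The whey fraction holds alpha-lactalbumin (LALBA), which directs a galactosyltransferase to make lactose, and beta-lactoglobulin, the lipocalin that the sheep gene PAEP encodes. Lactoperoxidase (LPO) is an antimicrobial enzyme of milk, saliva and tears. In the mammary gland, prolactin acting through STAT5 induces the casein and whey protein genes. In the sheep reference the casein genes lie in a cluster, in the order CSN1S1, CSN2, CSN1S2, CSN3.

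Signals are given as log2 of the processed intensity minus log2 of the 75th percentile of the same array, called the relative signal. It sets sheep against sheep at 1 probe and does not set 1 probe against another. The percentile itself ranged from 1747 to 2309 in small tail Han sheep, and from 1103 to 2048 in Aohan sheep. Between 10731 and 13384 probes were well above background on an array, and 0 spots were saturated. Aohan 1 had the fewest such probes and the widest scatter between repeated spots, with a median coefficient of variation of 19.6% over the probes spotted 5 times, against 7.77% to 11.7% on the other arrays. The skin markers KRT35, a hair keratin, and DCN, the dermal proteoglycan decorin, were well above background on all 6 arrays and did not pass the test between breeds, but only 2 of the 16 skin markers listed had a named probe.

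CSN2 was the only 1 of the 5 genes whose breeds were apart, and it was so at 1 of its 2 probes. At A_70_P039416 the signal was higher in all 3 Aohan sheep, by 4.86 (SE 0.65) on the log2 scale as processed and by 2.09 after normexp background correction, with 2 of the 3 small tail Han spots not well above background. At A_70_P039417, which was well above background in all 6 sheep, the breeds overlapped and the difference was 0.06 (SE 0.36). CSN3, LALBA, PAEP and LPO also overlapped between breeds, with differences from -0.62 to 0.29. Of the 6 probes, all had enough signal to enter the limma fit over 12480 probes, and 1 had a Benjamini-Hochberg adjusted p under 0.05, which is 16.7% of them. Over all probes tested this share was 15.2%, with 7.57% up-regulated and 7.6% down-regulated in the Aohan breed. The median difference was 0.11 over the 6 probes and 0.02 over all probes tested.

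**Figure D1:**
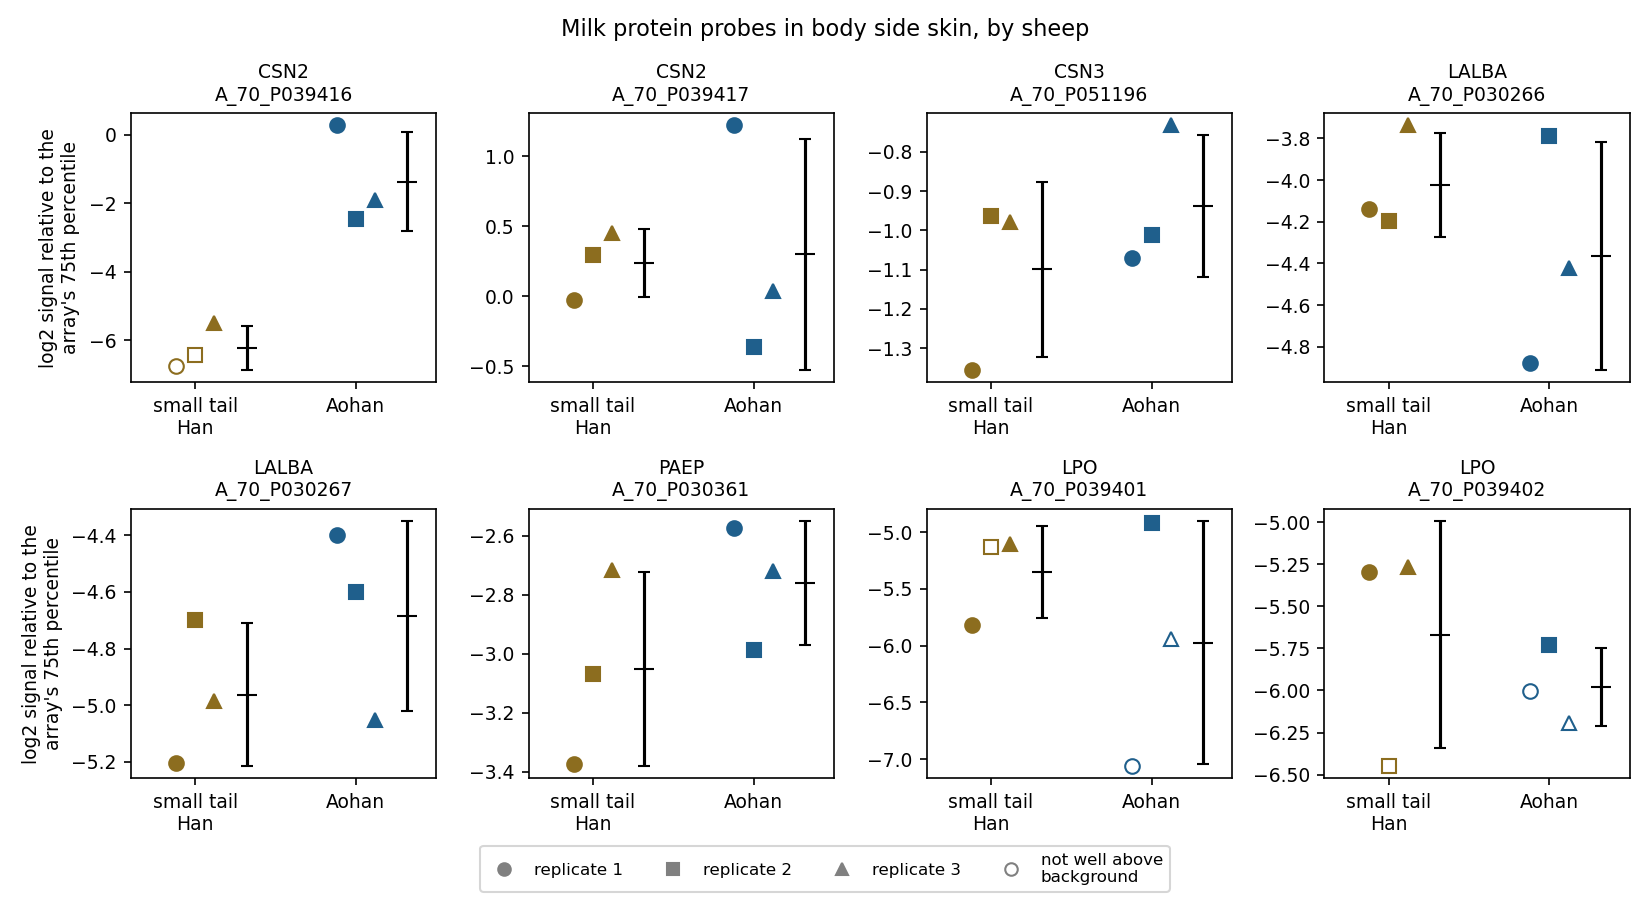
Relative signal (log2, relative to the 75th percentile of the array) of each milk protein probe in every sheep, with marker shapes for the replicates, open markers for spots not well above background and bars for the mean and SD (n = 3). The breeds are apart at the CSN2 probe A_70_P039416 and overlap at each of the other probes shown.

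The relative signal at A_70_P039416 was -6.75, -6.43 and -5.51 for small tail Han sheep 1, 2 and 3. For Aohan sheep 1, 2 and 3 it was 0.28, -2.47 and -1.91. The lowest Aohan sheep was thus far above the highest small tail Han sheep, and Aohan 1 stood above the other two of its breed. The means were -6.23 ± 0.64 (SD, n = 3) and -1.37 ± 1.45 (SD, n = 3). Of the 6 probes this was the only 1 whose groups did not overlap, while 34% of all probes tested had groups that did not overlap, 17.7% with Aohan above and 16.3% with small tail Han above. Only small tail Han 3 was marked well above background in its breed, against 3 of 3 Aohan sheep, so the size of the difference is set against a breed whose signal was near background, and no fold is given. The 3 Aohan arrays alone were enough to bring this probe into the test, which asked for 3 arrays well above background.

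The same pattern was present in the scanned spot before any correction. The median intensity of the spot was 86, 93 and 107 for small tail Han sheep 1, 2 and 3, and 606.5, 338.5 and 294 for Aohan sheep 1, 2 and 3. The local background around the spot lay between 51 and 55 in small tail Han and between 43 and 48.5 in Aohan sheep. Negative control spots, which are designed to match no transcript, reached at most 124, 127 and 133.5 on small tail Han arrays 1, 2 and 3 and 136.5, 70 and 111.5 on Aohan arrays 1, 2 and 3. The small tail Han spots were therefore inside the range of the negative controls of their own array, and the Aohan spots were above it.

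**Figure D2:**
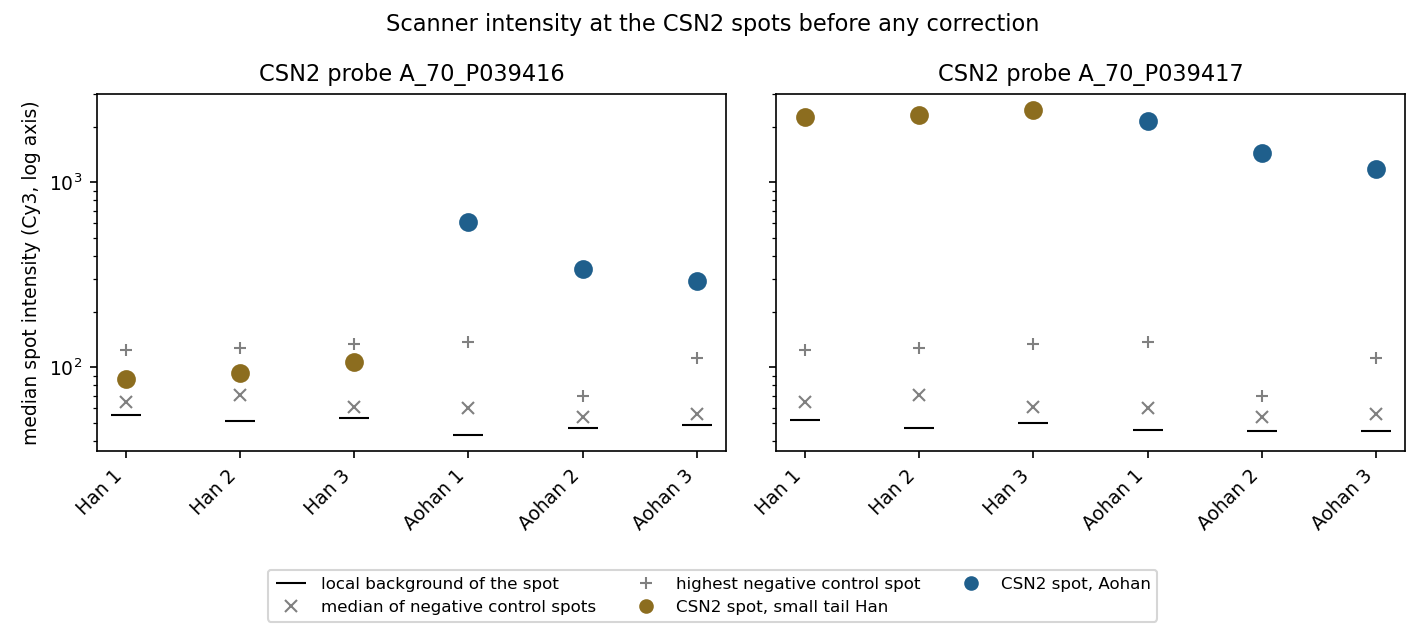
Median Cy3 intensity (log axis) of the spots of both CSN2 probes on each array, with the local background of the spot and the median and highest of 77 negative control spots. At A_70_P039416 the small tail Han spots lie between 86 and 107, below the highest negative control, and the Aohan spots lie between 294 and 606.5; at A_70_P039417 all spots lie at 1176 or above.

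This spot was in row 38 and column 2 of an array of 192 rows and 82 columns, near its edge. Feature Extraction multiplied it by 2.25 on Aohan 1 and by 1.18 on both other Aohan arrays in its correction for uneven signal over the array surface. On small tail Han 1 the factor was 1.44, and no such correction was made on small tail Han 2 and 3. Without this step the difference was 4.51. The 107 spots within 10 rows and 5 columns of it that were well above background on at least 3 arrays had a median difference of 0.03, with a range of -2.63 to 1.43, so that its difference was larger than that of each of those spots. After normexp background correction with an offset of 50, the difference was 2.09. It was 4.04 without Aohan 1, the sheep with the highest signal.

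At A_70_P039417 the relative signal was -0.03, 0.29 and 0.45 for small tail Han sheep 1, 2 and 3. For Aohan sheep 1, 2 and 3 it was 1.22, -0.36 and 0.04. Here Aohan 1 was the highest of the 6 sheep and Aohan 2 the lowest, and all small tail Han sheep fell between them. The means were 0.24 ± 0.24 (SD, n = 3) and 0.30 ± 0.82 (SD, n = 3). The scanned spot was bright in every sheep, with a median intensity from 1176 to 2465. The sign of its difference depended on the processing, with 0.06 as reported, -0.06 after normexp correction, -0.05 without the surface correction and -0.40 without Aohan 1.

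The 2 CSN2 probes thus differed in what they showed between the breeds. Within an array, the signal at A_70_P039416 minus that at A_70_P039417 was -6.72, -6.72 and -5.96 for small tail Han sheep 1, 2 and 3. It was -0.94, -2.10 and -1.95 for Aohan sheep 1, 2 and 3. The breed difference of this quantity was 4.80, against a pooled SD of 0.54 between sheep of a breed, and it was 2.16 after normexp correction. Within each breed the sheep had the same order at both probes, with small tail Han 1 the lowest and small tail Han 3 the highest, and Aohan 2 the lowest and Aohan 1 the highest. The PAEP probe had this order as well in both breeds. So did the median over the brightest of 4 equal groups of probes, at 2.40, 2.61 and 2.62 on small tail Han arrays 1, 2 and 3 and 2.57, 2.26 and 2.51 on Aohan arrays 1, 2 and 3, and its part in the order was not tested. Both probes carry the same transcript record, and the place each one matches in that transcript was not analysed here.

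CSN3, the micelle-stabilising casein, differed little between sheep. Its relative signal was -1.36, -0.96 and -0.98 for small tail Han sheep 1, 2 and 3, and -1.07, -1.01 and -0.73 for Aohan sheep 1, 2 and 3. The means were -1.10 ± 0.22 and -0.94 ± 0.18 (SD, n = 3 each), and the difference of 0.16 (SE 0.17) was within the spread of each breed. All 6 arrays had it well above background. Across every setting tried the difference stayed positive.

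CSN3 was the only member printed on the array 5 times, which gives its technical error. The spot in row 92 and column 20 was the lowest of the 5 on 6 of 6 arrays and was marked as an outlier on 5 of them, all but Aohan 1. Its processed intensity was 264, 546 and 411 on small tail Han arrays 1, 2 and 3, and 275, 239 and 205 on Aohan arrays 1, 2 and 3. Without the marked spots the coefficient of variation was 4.19% to 6.19% on those 5 arrays, and with them it was 21.3% to 40.6%. On Aohan 1, where no spot was marked, it was 40.2%. Keeping the marked spots gave a breed difference of 0.15.

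**Figure D3:**
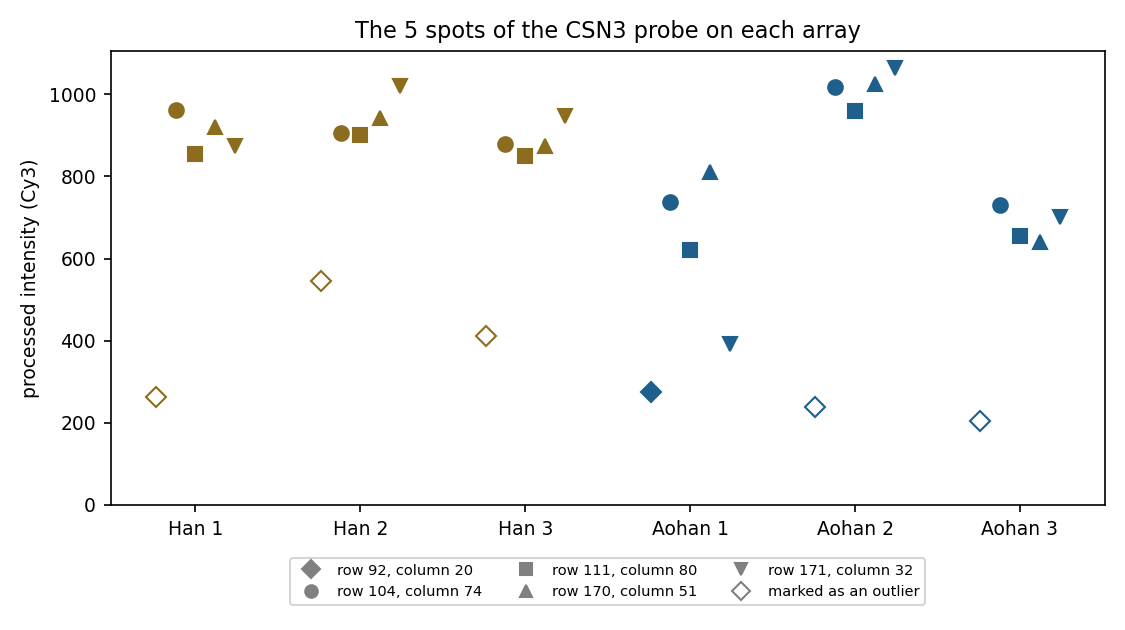
Processed Cy3 intensity of the 5 spots of the CSN3 probe on each array, with open diamonds for spots marked as outliers. The spot in row 92 and column 20 is the lowest on all 6 arrays, and it is used only on Aohan 1, where it was not marked.

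The other caseins, which flank CSN2 and CSN3 in the sheep reference, were near background. CSN1S1 (alpha-s1-casein) was well above background in 0 of 3 small tail Han and 1 of 3 Aohan sheep. Its relative signal was -7.04, -7.36 and -6.58 for small tail Han sheep 1, 2 and 3 and -6.65, -6.28 and -6.29 for Aohan sheep 1, 2 and 3, so the breeds overlapped. CSN1S2 (alpha-s2-casein) was well above background in 1 sheep of each breed at A_70_P030312 and in 0 sheep at A_70_P030311. At A_70_P030312 its relative signal was -6.002, -6.17 and -6.15 for small tail Han sheep 1, 2 and 3 and -6.43, -6.10 and -5.59 for Aohan sheep 1, 2 and 3, again with overlap. None of these 3 probes had enough signal to be tested, and the other genes within 10 places of CSN2 or CSN3 in the reference had no named probe.

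LALBA, the lactose synthase modifier, was marked well above background in all 6 sheep, and its 2 probes pointed in opposite directions. Some of its spots were no brighter than the highest negative control spot of their array. Median intensity at A_70_P030267 was 124 and 120 on small tail Han 1 and 3 and 104.5 and 95 on Aohan 1 and 3. The highest negative control on these arrays was 124, 133.5, 136.5 and 111.5. At A_70_P030266 this held on Aohan 1, with 116 against 136.5. The other LALBA spots were brighter than that control. At A_70_P030266 the relative signal was -4.14, -4.20 and -3.74 for small tail Han sheep 1, 2 and 3, and -4.88, -3.79 and -4.42 for Aohan sheep 1, 2 and 3. The breeds overlapped, with means of -4.02 ± 0.25 and -4.36 ± 0.55 (SD, n = 3 each) and a difference of -0.34 (SE 0.31). At the further probe A_70_P030267 the relative signal was -5.20, -4.70 and -4.99 for small tail Han sheep 1, 2 and 3, and -4.40, -4.60 and -5.05 for Aohan sheep 1, 2 and 3. The difference there was 0.28 (SE 0.29), again with overlap. Neither probe separated the breeds, and Aohan 1 was the lowest of its breed at the first probe and the highest at the other.

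PAEP, the beta-lactoglobulin gene, was well above background in all 6 sheep and varied little. The relative signal was -3.37, -3.07 and -2.71 for small tail Han sheep 1, 2 and 3, and -2.57, -2.99 and -2.72 for Aohan sheep 1, 2 and 3. The means were -3.05 ± 0.33 and -2.76 ± 0.21 (SD, n = 3 each). The difference of 0.29 (SE 0.22) was smaller than the SD in small tail Han sheep, and the groups overlapped.

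LPO, the peroxidase, was near background and was the only member that was not well above background in all sheep of at least 1 breed. At A_70_P039401 the relative signal was -5.82, -5.13 and -5.10 for small tail Han sheep 1, 2 and 3, and -7.06, -4.92 and -5.95 for Aohan sheep 1, 2 and 3. It was well above background in small tail Han 1 and 3 and in Aohan 2. The difference of -0.62 (SE 0.53) was smaller than the SD of 1.07 in Aohan sheep, and it was -0.08 without Aohan 1. The further probe A_70_P039402 was well above background in the same 3 sheep and gave -0.31 (SE 0.41). The first LPO probe and the first LALBA probe were both lowest on Aohan 1, then on Aohan 3, in that breed. On these arrays fewer probes were well above background (10731 and 11904) than on Aohan 2 (13384), and the part of this in the LPO and LALBA values was not tested. When the probes tested were ordered by mean signal in 4 equal groups, the median SE was 0.33 in the dimmest group, against 0.18 to 0.22 in the others. In whole skin, fewer cells that express a gene and less RNA per cell cannot be told apart.

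Genes of the lactation pathway were taken from 6 lists with 77 symbols, of which 20 had a named probe and 14 were tested. In the limma fit, 2 of the 14 were up-regulated in the Aohan breed and 2 were down-regulated, which is 28.6% beside 15.2% of all probes. The lists were chosen with earlier results of these data known, and each gene was counted by its probe of highest mean signal. The share over all probes includes dim ones, so these shares are not like for like. The median difference of the 14 genes was 0.04, beside 0.02 over all probes. The genes that passed were 2 antimicrobial proteins, a peptide hormone and an enzyme of fat synthesis, and none of the prolactin and growth hormone genes passed.

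**Figure D4:**
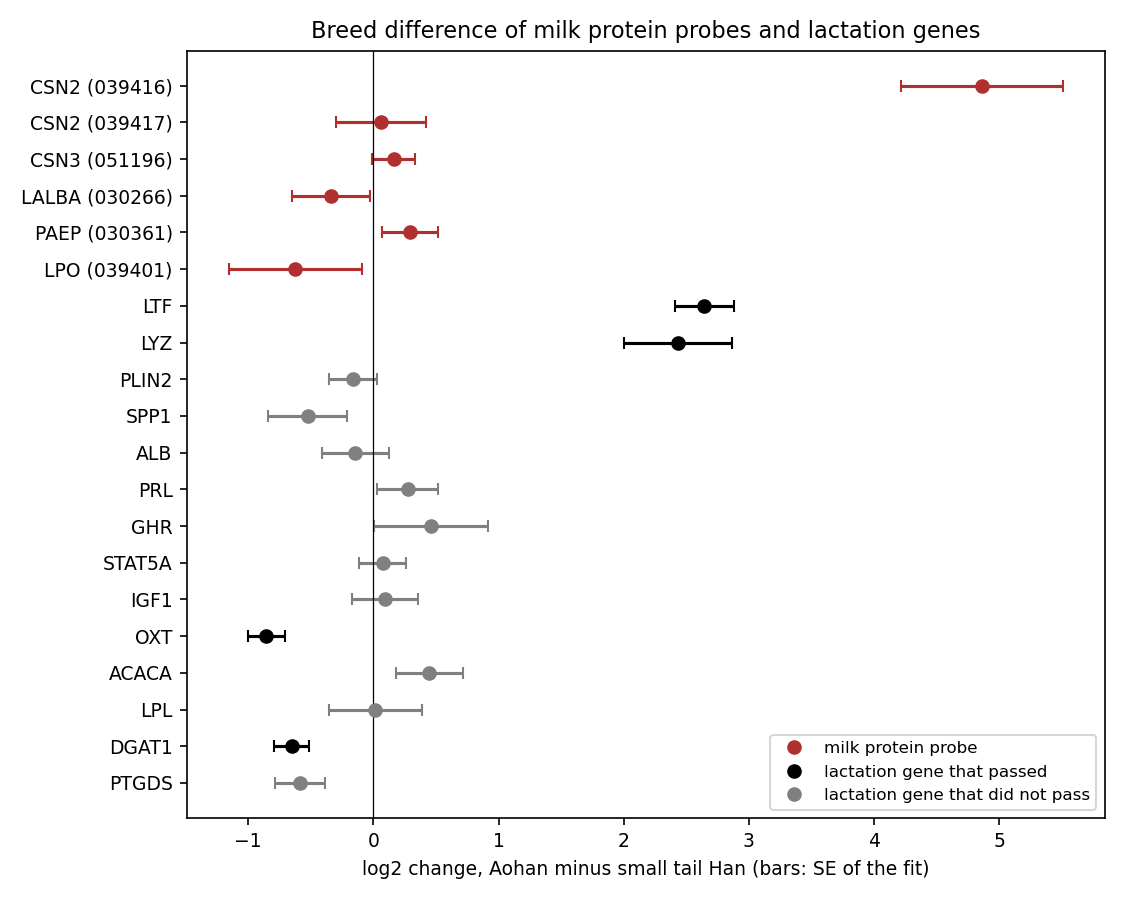
Difference between the breeds (log2, Aohan minus small tail Han, bars for the SE of the fit) at the milk protein probes and at the lactation genes tested. The CSN2 probe A_70_P039416 is at 4.86, LTF and LYZ are at 2.64 and 2.44, and OXT and DGAT1 are at -0.86 and -0.65.

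Of the other milk proteins, 7 of 16 had a named probe and 5 were tested. LTF, which codes for the iron-binding protein lactoferrin, was higher in Aohan sheep by 2.64 (SE 0.24, limma adjusted p = 0.000201). LYZ, the lysozyme of tears and milk, whose protein fold alpha-lactalbumin shares, was higher by 2.44 (SE 0.43, limma adjusted p = 0.0073) at A_70_P051226 and by 2.88 at A_70_P051227, where small tail Han 1 was left out because of an outlier mark. PLIN2, a lipid droplet protein, SPP1 (osteopontin) and ALB (serum albumin) gave -0.16, -0.52 and -0.14 and did not pass. The other ALB probe, A_70_P051001, gave 0.74 (SE 0.32, limma adjusted p = 0.166) and did not pass either. Of the 4 leukocyte markers with a named probe, 3 (CD3D, CD3E and ITGB2) passed as higher in Aohan sheep, beside 7.57% of all probes. This was the direction of LTF, LYZ and the CSN2 probe A_70_P039416. The CSN2 probe A_70_P039417 differed by 0.06. The other CD3D probe, A_70_P039312, gave 0.73 (limma adjusted p = 0.088) and did not pass, while the other probes of CD3E and ITGB2 passed. CD14 gave 0.19 at A_70_P030286 and -0.31 at A_70_P030287 and did not pass. The mean relative signal of the 4 markers was -0.57 to -0.18 in small tail Han sheep and 0.28 to 0.60 in Aohan sheep, and their part in these results was not tested. AQP5, a water channel of glands and the only gland marker of 14 with a named probe, gave 0.06 (SE 0.21). Its other probe, A_70_P030151, gave -0.44 (SE 0.47). Of the sebaceous gland markers 0 of 4 passed, and HBB, the only red blood cell marker with a named probe, gave -0.83 (SE 0.37) and did not pass.

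Prolactin signalling was represented by 3 tested genes of 16 listed. PRL itself was well above background in all 6 sheep, with a difference of 0.27 (SE 0.24) at A_70_P030242 and 0.10 (SE 0.28) at A_70_P030241. STAT5A, the transcription factor that acts on casein promoters, gave 0.07 (SE 0.19) at A_70_P039386. At A_70_P039387 it gave -0.41 (SE 0.32), and neither probe passed. GHR, the growth hormone receptor, gave 0.46 (SE 0.45). GH, the growth hormone gene, was too dim on every array to enter the test. The list of transcription factors of milk gene promoters had a named probe for 0 of its 10 genes and was not analysed here.

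Of the other lactation hormones, OXT, whose product oxytocin releases milk, was lower in Aohan sheep by a log2 difference of -0.86 (SE 0.15, limma adjusted p = 0.00634) at A_70_P039697. Its other probe gave -0.43 (limma adjusted p = 0.186) and did not pass. IGF1 gave 0.09 (SE 0.26), and NR3C1 and OXTR were too dim to be tested. In lactose and milk fat synthesis, DGAT1, which catalyses the last step of triglyceride synthesis, was lower with -0.65 (SE 0.14, limma adjusted p = 0.0159) at A_70_P051046. Its other probe gave -0.59 (limma adjusted p = 0.0831), and the call was lost without small tail Han 2 (adjusted p = 0.065), small tail Han 3 (adjusted p = 0.0852) or Aohan 3 (adjusted p = 0.0563). ACACA, the acetyl-CoA carboxylase of fatty acid synthesis, gave 0.45 (SE 0.27), and LPL (lipoprotein lipase) gave 0.01 (SE 0.37), and SCD was too dim to be tested. PTGDS, a lipocalin like the product of PAEP, gave -0.59 (SE 0.20, limma adjusted p = 0.0829).

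The genes most like each member were the 3 symbols of highest Pearson's r over the 6 arrays, out of 424 symbols with a tested probe, given as a description since all points share the same 6 arrays. For CSN2 at A_70_P039416 they were PDXK (pyridoxal kinase, r = 0.994), LGALS1 (galectin-1, r = 0.985) and BGLAP (osteocalcin, r = 0.978). The breeds were apart at this probe, so a gene that also differs between the breeds can reach a high r. BGLAP was itself higher in Aohan sheep by 1.11. For CSN2 at A_70_P039417 they were HSD11B1, which activates glucocorticoids (r = 0.979), PYGL, a glycogen phosphorylase (r = 0.978), and NPVF (r = 0.931). The 2 CSN2 probes had no gene in common among these, but their unlike breed differences enter these r values, so this is no separate result. For CSN3 they were SLC17A5 (r = 0.965), H2AZ1 (r = 0.946) and ATP5PO (r = 0.936), and for PAEP they were TIMELESS (r = 0.989), PR (r = 0.988) and CD86 (r = 0.981). LALBA at A_70_P030266 was most like TLR9 (r = 0.962), PRKAR1A (r = 0.960) and LPO (r = 0.925), and LPO was most like SLC6A4 (r = 0.946), LOC100147796 (r = 0.926) and LALBA (r = 0.925). LALBA and LPO were the only members to appear in each other's list, each by 1 probe. That LPO probe, A_70_P039401, was not well above background on small tail Han 2, Aohan 1 and Aohan 3. Of the 6 arrays, both probes were lowest on Aohan 1, at -7.06 for LPO and -4.88 for LALBA. The further LALBA probe A_70_P030267 was instead highest there, at -4.40.

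Under the other settings, leaving out sheep included, the difference kept its sign at CSN3, PAEP and the CSN2 probe A_70_P039416. It also kept its sign at the LALBA probe A_70_P030266 and the LPO probe A_70_P039401, but its size moved. This LPO probe ran from -0.08 without Aohan 1 to -1.15 without Aohan 2. This LALBA probe ran from -0.63 without Aohan 2 to -0.08 without Aohan 1. The further LALBA probe A_70_P030267 had the other sign, at 0.28. The CSN2 probe A_70_P039417 ran from -0.40 to 0.39 and so changed sign.

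**Figure D5:**
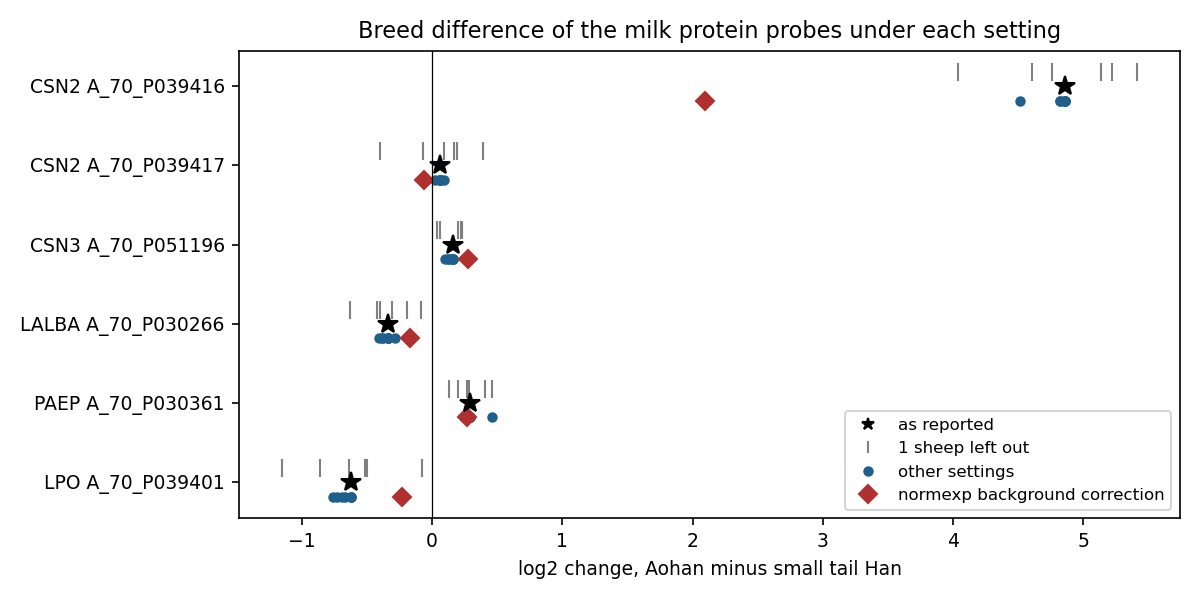
Difference between the breeds (log2, Aohan minus small tail Han) at each milk protein probe as reported (star), with each sheep left out, with normexp background correction (diamond) and under the other settings. CSN2 at A_70_P039416 runs from 2.09 with normexp to 5.41 without Aohan 2, and A_70_P039417 lies on both sides of 0.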

How the data were processed

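RNA from 6 skin samples (3 sheep per breed) was hybridised to 1-colour arrays, 1 array per animal. Per the file headers, the authors extracted the intensity of each spot with Agilent Feature Extraction 10.5.1.1, which subtracted background and, on 4 arrays, corrected for uneven signal over the surface. The deposited series matrix gives log2 signals after a scaling between arrays by the authors. The median of each of its 6 columns is 8.31, and the method of that scaling is not given in the sources used here.

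Control spots and spots with outlier marks were left out. The log2 processed intensity of each spot was set relative to the 75th percentile of its array, and the mean over the spots of a probe was used. A probe entered the test if it was well above background on 3 or more arrays and had 2 or more values in each breed, with limma 3.58.1 in R 4.3.3 (two-sided eBayes with trend, Benjamini-Hochberg over 12480 probes, threshold 0.05). The number of arrays limits the precision. The procedure was tested on simulated data, drawn as independent normal values with the same SD in both breeds. Probes with unequal spread between breeds, such as the CSN2 probe A_70_P039416, were not covered by it. Figures were drawn with matplotlib 3.10.9.

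Symbols came from RefSeq accessions matched to assembly ARS-UI_Ramb_v3.0, for 734 of 758 such probes. The members and gene lists were chosen with earlier results of these data known. Genes named are the members, genes of the lists that passed and up to 4 others per list, the casein neighbours, and the 3 most alike symbols per probe. A list gene was counted by its probe of highest mean signal. The alternatives were quantile, median and normexp (offset 50, on median signals) processing, the series matrix, other filters, leaving out each array, no intensity trend, a replicate block, the methods' t-test, and, chosen after seeing the data, the signal without surface correction and with population outlier spots kept. Probe descriptions were not searched, since the files used hold none.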

Additional observations from a re-analysis of the deposited data

How the results depend on the processing

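Of the 6 milk protein probes, whose breed difference was known when they were chosen, 1 was higher in Aohan sheep under every alternative except 2. It was 0 when a probe had to be well above background on all 6 arrays, since that filter removes A_70_P039416, and 0 with the methods' t-test after Benjamini-Hochberg adjustment, where the number of milk protein probes lower was also 0. The breed difference of the 2 CSN2 probes' within-array difference was 2.16 with normexp correction instead of 4.80, and the cause was not tested. Of the lactation genes, 1 instead of 2 was higher with the methods' t-test after adjustment, where LYZ had an adjusted p of 0.105. The number lower was 1 to 2 when each sheep was left out, 1 with the background-subtracted signal without the surface correction, and 1 with the replicate block, the gene lost each time being DGAT1. Same-numbered sheep of the breeds did not deviate together (correlations of -0.224, -0.369 and 0.278), so the numbers were not taken as pairs, and the block changed no call at the milk protein probes. Over all probes, 1893 passed as reported, 789 without small tail Han 2, 944 without small tail Han 3, 1063 without Aohan 3, 1234 with the replicate block and 712 with the methods' t-test after adjustment. Dim probes limit what can be seen: 8.88% of the dimmest of 4 equal groups of probes passed. The share was 16.7%, 23.8% and 11.25% in the other groups, in order of rising signal, so it did not rise steadily with signal. The LPO, CSN1S1 and CSN1S2 probes lay near background. Some LALBA spots were also no brighter than the highest negative control spot of their array.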
